A study of Mus musculus with 6 samples.

Results

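The proteasome subunit genes are the mouse genes whose symbol consists of Psma, Psmb, Psmc, Psmd, Psme, Psmf or Psmg and a number. Psmb8, Psmb9 and Psmb10, the immunoproteasome subunits, were set aside as their counterparts. This rule found 45 of the 24421 gene symbols in the table of read counts. They comprise 8 genes of the 20S alpha ring, 8 of the 20S beta ring, 6 ATPases and 11 other subunits of the 19S cap, 5 activators and inhibitors, and 7 assembly chaperones. RNA came from liver endothelial cells (ECs) of wild-type C57BL/6J mice, which the methods describe as female, sorted as CD31+CD45- after enzymatic digestion of the liver. There were 3 young samples, from 10-week-old mice, and 3 aged samples, from mice that the labels give as 127, 131 and 136 weeks old. No mouse carried a transgene or received a treatment. According to the methods, mice with visible tumors or an enlarged liver or spleen were left out. Each aged sample is called by its age in weeks below. The methods call the 3 samples of each group independent.

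The proteasome is the protease that degrades proteins tagged with ubiquitin. Its 20S core is a stack of alpha and beta rings. The alpha rings gate the entry, and within the beta rings Psmb5, Psmb6 and Psmb7 encode the catalytic subunits. The 19S cap binds ubiquitin chains, removes them and unfolds the substrate with a ring of ATPases. Cells under interferon replace the catalytic subunits with those encoded by Psmb8, Psmb9 and Psmb10. When proteasome activity is short, the transcription factor Nrf1 (encoded by Nfe2l1) raises the genes of core and cap together through antioxidant response elements in their promoters.

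Total counts ran from 23001556 to 31651817 per sample, so 3 counts corresponded to 0.0948 to 0.130 CPM, the count scaled by library size. Reads carried no molecular identifiers, and this floor accounts only for counting error. Lars2 and Rn45s, symbols that collect ribosomal RNA reads, took 1.29% of the counts of young replicate 3 and 0.960% of those of the 127-week sample. In the other 4 samples they took 4.68% to 5.53%. This split crosses age, and age differences are therefore also given within the 4 libraries rich and the 2 libraries poor in such counts. Those within-library values are differences of log2(CPM + 1), with 2 samples per age in the first and 1 per age in the second. Endothelial markers (10 genes) summed to 19070 to 20600 CPM in young samples and to 10340 to 15080 CPM in aged samples. By log2 fold change 8 of them were lower and 2 higher in aged samples, to unlike degrees. Stab2 averaged 3041 CPM in young and 935.3 CPM in aged samples, whereas Pecam1, which encodes CD31, averaged 1444 and 1459 CPM. Leukocyte markers (10 genes) summed to 104.1 to 111.1 CPM in young samples and to 122.8, 103.5 and 374.5 CPM in the 127-, 131- and 136-week samples. Most of the sum in young samples was Lcp1, with 79.28, 86.88 and 81.05 CPM in young and 59.6, 83.75 and 156.2 CPM in aged samples. Ptprc, which encodes CD45, had 1.17 to 1.704 CPM in young samples and 7.57, 1.28 and 25.6 CPM in the aged ones. Hepatocyte markers (8 genes) summed to 228.3 to 304.3 and 180.2 to 302.6 CPM, stellate and mural markers (6 genes) to 115.3 to 378.5 and 199.6 to 664.2 CPM, and cholangiocyte markers (3 genes) to 5.90 to 21.1 and 16.4 to 21.6 CPM, in young and aged samples respectively. The largest part of the hepatocyte sum was Trf. It had 172.2, 135.4 and 115.9 CPM in young and 184.7, 105.4 and 243.3 CPM in aged samples. By log2 fold change Trf was higher and the other 7 hepatocyte markers lower in aged samples. Reln was the largest part of the stellate and mural sum. It had 155.0, 181.2 and 69.9 CPM in young and 351.1, 109.0 and 495.6 CPM in aged samples. Of these 6 markers, 3 were higher and 3 lower. Heat shock and dissociation genes (6 genes) summed to 10180 to 13480 CPM in young and 12330 to 15390 CPM in aged samples. Cd3e was at 0 in young replicate 3, and no marker was at 0 in all samples.

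The promoters of a few members are shown because the elements named above for Nrf1 are sought in promoters. Binding of Nrf1 to them was not tested. RefSeq promoters of GRCm38.p6, a later build than the mm9 of the reads, were available for 37 of the 45 members. In the 250 bases before the start site, on both strands, 6 motifs were searched. The core of the antioxidant response element, TGACNNNGC, occurred in 5 member promoters, those of Psmb5, Psmb6, Psmc6, Psmd9 and Psmd12. That was 13.5% of the members against 11.5% of all 27025 promoters. Stretches around the element are printed for Psmb5, Psmb6 and Psmc6, whose values in each sample are given further on, 5′ to 3′ on the strand of the gene, with the element in capitals. They lie at chr14:54618014-54618062 (minus strand) for Psmb5, chr11:70525328-70525356 (plus strand) for Psmb6 and chr14:45329577-45329625 (plus strand) for Psmc6. In Psmc6 the capitals are the element read on the opposite strand.
Psmb5: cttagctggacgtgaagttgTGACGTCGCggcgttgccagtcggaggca
Psmb6: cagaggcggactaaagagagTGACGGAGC
Psmc6: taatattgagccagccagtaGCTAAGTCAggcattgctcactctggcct
The element ended 38 bases before the start site in Psmb5 and directly at it in Psmb6, and lay 218 bases before it in Psmc6. The looser form TGANNNNGC, which includes every TGACNNNGC, was found in 15 member promoters (40.5%, against 38.7% of all). TGACTCAGC, which is a case of both, was found in 0 (0.426% of all). CCAAT, the letters bound by NF-Y, was found in 13 (35.1%, against 37.5%). TTCCGG, the core letters of sites for ETS factors, was found in 17 (45.9%, against 13.6%), and its extended form TTCCGGAA in the promoter of Psmd4 alone (2.70%, against 0.662%). The promoters behind the shares over all genes were not matched to the members by base composition. A match of letters is a description and not a binding site.

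All 45 genes reached 0.5 CPM in at least 1 sample and were tested among 14612 genes. Levels can be compared between genes as FPKM, which divides by transcript length and library size, from the authors' Cuffnorm table. The 31 core and cap genes, leaving out the tissue-restricted Psma8 and Psmb11, lay within a 5.68-fold range of mean FPKM in young ECs, from 44.5 for the cap subunit gene Psmd12 to 252.9 for the beta ring gene Psmb2. Their median was 93.6 FPKM in young and 89.1 FPKM in aged ECs. Without those genes, the 7 alpha ring genes had a median of 135.2 and the 7 beta ring genes of 179.4 FPKM in young ECs, the ATPases of 87.2 and the other cap subunits of 75.6 FPKM. Psma8, the alpha subunit of male germ cells, stood far below its ring at 3.59 FPKM, and Psmb11, the catalytic subunit of the thymus cortex, at 0.0924 FPKM. Assembly chaperones, which bind intermediates and leave the finished particle, ran from 17.8 to 38.9 FPKM. Among the activators, Psme1 and Psme2, the subunits of the interferon-inducible PA28 ring, had 184.2 and 165.6 FPKM, while Psme3 of the nuclear PA28 gamma ring had 31.3, Psme4, which encodes PA200, 3.43, and Psmf1, which encodes the inhibitor PI31, 13.9 FPKM. Summed over all 45 genes, young samples held 4184, 4126 and 3647 FPKM and the 127-, 131- and 136-week samples 3644, 3920 and 4224. The sums of young replicate 3 and of the 127-week sample lay below those of the other 4 samples, and the ages overlapped.

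**Figure D1:**
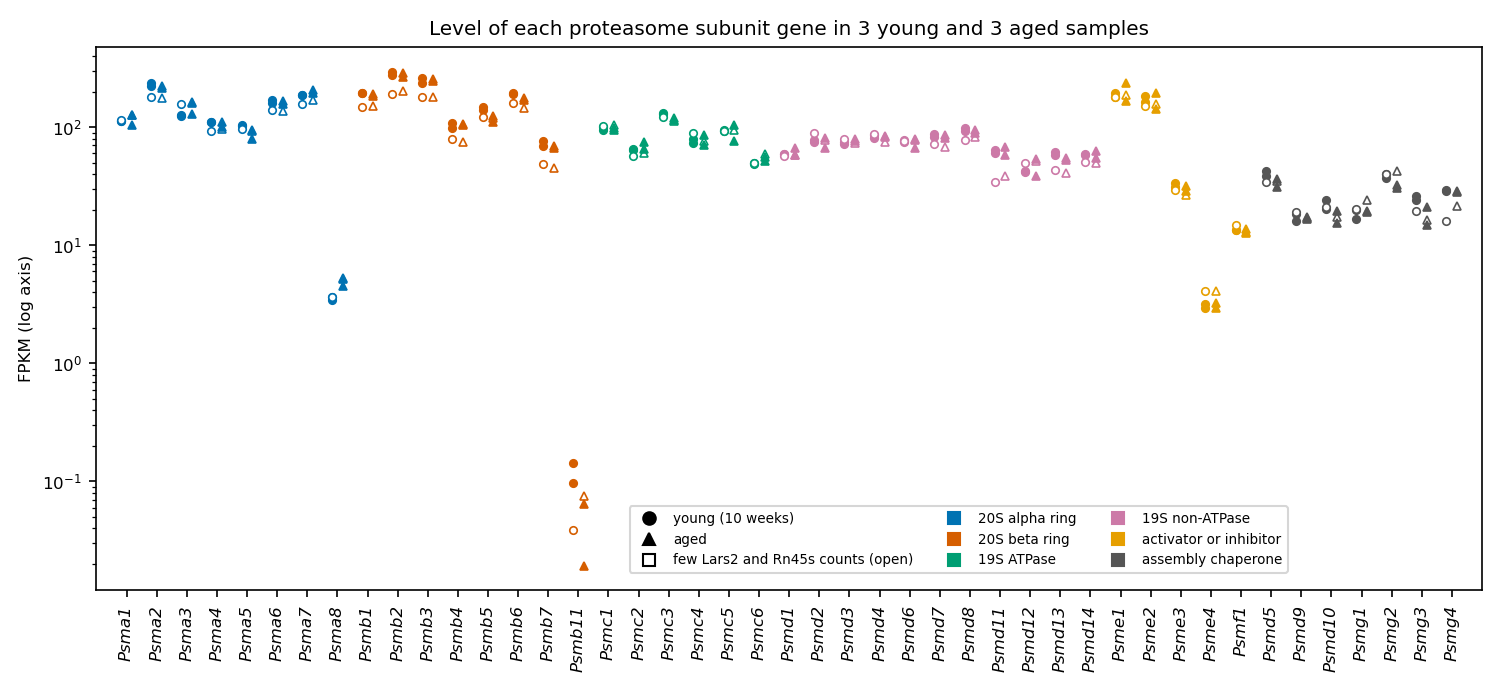
FPKM on a log axis for each of the 45 genes, grouped by role, with 1 symbol per sample: circles for the 3 young and triangles for the 3 aged samples, open for the 2 libraries with few Lars2 and Rn45s counts. Core and cap genes form a band from 44.5 to 252.9 FPKM in young means, with Psma8 at 3.59 and Psmb11 at 0.0924 below it.

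The first question was whether these genes differ between aged and young ECs. In edgeR's quasi-likelihood test, 0 of the 45 genes had an adjusted p below 0.05, with Benjamini-Hochberg adjustment over all 14612 genes, and 0% of all genes were called. At an unadjusted p below 0.05 the edgeR test found 0 of the 45 as well, against 12.6% of all genes (8.32% higher and 4.32% lower in aged ECs). DESeq2's Wald test called 0 of the 45 as well, against 4.57% of all genes, and 1 of them, Psma8, had an unadjusted p below 0.05, against 14.9%. The log2 fold change, aged against young, was above 0 for 18 and below 0 for 27 genes (60% below 0, against 48.9% of all genes). The median was -0.02 (0.01 over all genes). With total counts in place of TMM scaling, 31 were above and 14 below 0, and the median was 0.04 (0.08 over all genes), so no direction of the group held under every scaling. The median size of the fold change, without its sign, was 0.08 on the log2 scale, against 0.25 over all genes. RNA of sorted cells in bulk cannot tell fewer cells of a type from less RNA per cell.

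The intervals limit how large a change could have been missed. The 95% interval of the log2 fold change lay within -1 and 1 for 44 of the 45 genes, against 53.5% of all genes. It lay within -0.5 and 0.5 for 29 of them, against 13.8% of all genes. Counts of these genes are high, from 126 to 7983 per sample outside Psmb11, whereas many other genes have low counts and wide intervals. Psmb11 had 16, 9 and 5 counts in young and 9, 8 and 2 counts in the aged samples, with an interval from -2.73 to 1.33, so that no difference of that size could be detected at this depth. The ages did not overlap for 4 genes. Psma8 and Psmc6 were higher in every aged sample (9.62% of all genes were), and Psmc3 and Psmd10 lower in every aged sample (8.33% of all genes were).

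**Figure D2:**
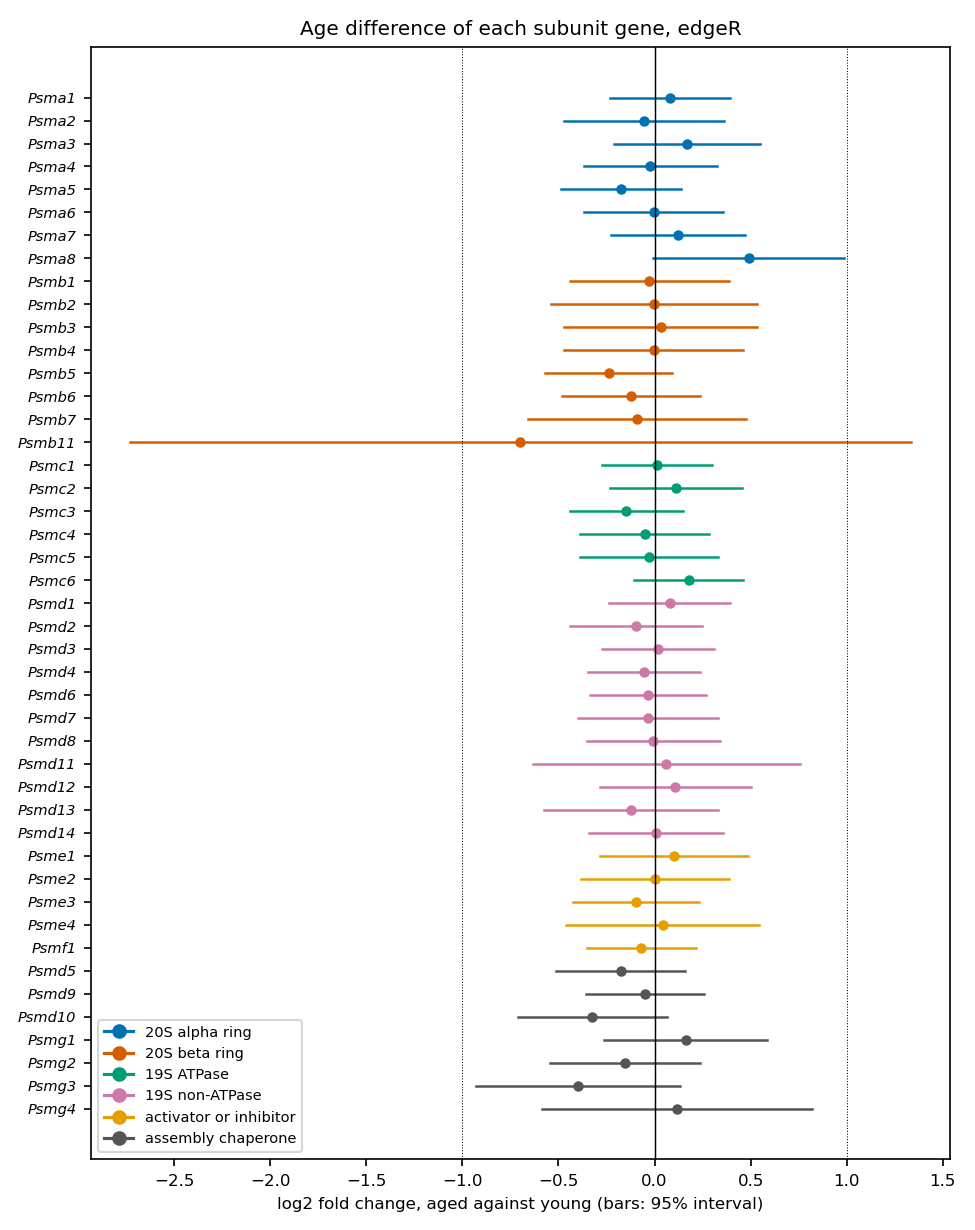
Log2 fold change of each of the 45 genes, aged against young, from edgeR (points) with its 95% interval (bars), coloured by role; dotted lines mark -1 and 1. Every interval includes 0, and that of Psmb11 is the only one to pass beyond a dotted line.

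The 8 alpha ring genes had a median log2 fold change of 0.04, with 4 genes above and 4 below 0. Psma8 was expressed at 5.36, 5.69 and 5.90 CPM in young replicates 1, 2 and 3, and at 8.39, 8.25 and 7.15 CPM in the 127-, 131- and 136-week samples. All aged values lay above all young ones. Its log2 fold change was 0.49 (SE 0.21, 95% interval -0.01 to 0.99, edgeR unadjusted p = 0.0533, adjusted p = 0.402), and 0.41 and 0.44 within the libraries rich and poor in these counts. Psma5, a structural subunit of the ring, had 109.2, 107.3 and 98.9 CPM in young and 96.1, 83.8 and 99.5 CPM in aged samples, which overlapped. In FPKM they did not, with 104.1, 102.3 and 96.8 in young and 93.0, 79.5 and 94.6 in aged samples. Its log2 fold change was -0.17 (SE 0.13, edgeR adjusted p = 0.649). Psma1, Psma2, Psma3, Psma4, Psma6 and Psma7, the other structural subunits of the ring, had log2 fold changes between -0.06 for Psma2 and 0.17 for Psma3.

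In the beta ring 7 of 8 genes had a log2 fold change below 0, with a median of -0.06 and none past the test, while 48.9% of all genes were below 0. With total counts 4 of 8 were below 0. Leaving out 1 sample gave between 2 of 7, without young replicate 1, and 8 of 8, without young replicate 3, the 131-week or the 136-week sample. Psmb5 (mm9, chromosome 14, 55232644 to 55236851, minus strand) encodes the chymotrypsin-like subunit. It had 78.4, 84.3 and 66.6 CPM in young and 64.2, 68.8 and 61.1 CPM in aged ECs, where 2 of the 3 aged samples lay below all young ones. Its log2 fold change of -0.24 (SE 0.14, 95% interval -0.57 to 0.09) did not pass the test (edgeR adjusted p = 0.548). The difference was -0.32 within the libraries with many Lars2 and Rn45s counts and -0.05 within those with few. Psmb6 (chromosome 11, 70338869 to 70341360, plus strand), the caspase-like subunit gene, had 165.7, 162.7 and 134.2 CPM in young and 124.2, 153.4 and 147.4 CPM in aged ECs. Psmb7 (chromosome 2, 38443556 to 38499607, minus strand), the trypsin-like subunit gene, had 60.4, 54.8 and 37.7 CPM in young and 35.1, 53.0 and 55.6 CPM in aged ECs. In both genes the ages overlapped, and within each age the library with few Lars2 and Rn45s counts was the lowest. Their log2 fold changes were -0.12 for Psmb6 and -0.09 for Psmb7 (edgeR adjusted p = 0.808 and 0.930). Psmb1, Psmb2, Psmb3 and Psmb4, the structural subunits of the ring, had log2 fold changes from -0.03 for Psmb1 to 0.03 for Psmb3.

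The 6 ATPases of the cap split evenly, with 3 genes above and 3 below 0 and a median of -0.01. Psmc6 was tightly held in young ECs, at 69.4, 70.7 and 68.8 CPM, and stood at 82.6, 73.5 and 80.1 CPM in aged ECs. All 3 aged samples were above the young ones. The log2 fold change of Psmc6 was 0.18 (SE 0.12, 95% interval -0.11 to 0.46, edgeR adjusted p = 0.607), and the differences within libraries were 0.13 and 0.26. Psmc3 went the other way, with 194.5, 193.3 and 176.8 CPM in young and 164.0, 176.4 and 169.8 CPM in aged ECs. The gap between the lowest young and the highest aged sample was small, at 176.8 against 176.4 CPM. Its log2 fold change was -0.15 (SE 0.13, edgeR adjusted p = 0.703). Psmc1, Psmc2, Psmc4 and Psmc5 lay between -0.05 for Psmc4 and 0.11 for Psmc2.

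Of the 11 other cap subunits, 5 had log2 fold changes above and 6 below 0, with a median of -0.01 and a range from -0.12 to 0.11. This group holds Psmd4, a ubiquitin receptor, Psmd14, the deubiquitinase that cuts the chain from the substrate, and scaffold subunits. Psmd2, the scaffold subunit that docks ubiquitin shuttles, had 220.7, 215.7 and 251.9 CPM in young and 222.0, 190.8 and 230.7 CPM in aged ECs. Psmd13, of the lid, had 82.2, 86.8 and 60.2 CPM in young and 57.5, 77.5 and 75.1 CPM in aged ECs. These are the members of the group with the smallest p, and in both the ages overlapped (log2 fold changes -0.10 and -0.12, edgeR adjusted p = 0.851 and 0.856). Psmd4 and Psmd14 had log2 fold changes of -0.06 and 0.01. Psmd1, Psmd3, Psmd6, Psmd7, Psmd8, Psmd11 and Psmd12 lay between -0.03 for Psmd6 and 0.11 for Psmd12.

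Assembly chaperones had the lowest median of the 6 roles, -0.15, with 5 of 7 genes below 0, while 48.9% of all genes were below 0. Psmd10, which encodes gankyrin, a chaperone of the ATPase ring, had 26.3, 30.8 and 26.4 CPM in young and 21.8, 25.1 and 19.8 CPM in aged ECs. The ages did not overlap. The log2 fold change of Psmd10 was -0.32 (SE 0.17, 95% interval -0.71 to 0.07, edgeR adjusted p = 0.480), with -0.34 and -0.26 within libraries. Psmg3, a chaperone of the alpha ring, had 16.3, 17.5 and 12.7 CPM in young and 11.0, 14.4 and 9.91 CPM in aged ECs. Only the 131-week sample reached the young range. Psmg3 had a log2 fold change of -0.40 (SE 0.23, edgeR adjusted p = 0.525). Psmd5 and Psmd9, which also act on the ATPase ring, and Psmg1, Psmg2 and Psmg4, which act on the alpha ring, ranged from -0.18 for Psmd5 to 0.16 for Psmg1. Against the mean of young ECs on log2(CPM + 1), the median of the 7 chaperones was 0.05, 0.14 and -0.07 in young and -0.15, -0.08 and -0.28 in the 127-, 131- and 136-week samples. All 3 aged values were below all young ones, but the closest, -0.08 and -0.07, were nearly equal. The same median over all genes ran from -0.0063 to 0.016 in these samples. No test was made of this role, which is named as the lowest of 6. Within libraries the median age difference of the chaperones was -0.26 in those rich and 0.02 in those poor in Lars2 and Rn45s counts.

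Among activators and the inhibitor, 3 genes were above and 2 below 0, with a median of 0.0026. Psme1 (chromosome 14, 56196960 to 56200366) and Psme2 (chromosome 14, 56206278 to 56209950) lie near each other on opposite strands. Psme1 had 155.6, 142.4 and 140.4 CPM in young and 147.2, 134.7 and 188.2 CPM in the 127-, 131- and 136-week samples. Psme2 had 120.1, 107.8 and 98.8 CPM in young and 104.3, 94.1 and 128.8 CPM in aged ECs. In both genes the 136-week sample was the highest and the 131-week sample the lowest of all 6. The 136-week sample was also the one with 374.5 CPM of leukocyte markers, and their part in these values was not tested. The log2 fold changes were 0.10 for Psme1 (SE 0.16, edgeR adjusted p = 0.865) and 0.0026 for Psme2 (SE 0.16, edgeR adjusted p = 0.997). Psme3 had 77.8, 84.6 and 71.6 CPM in young and 65.7, 73.0 and 79.8 CPM in aged ECs, a log2 fold change of -0.10 (edgeR adjusted p = 0.837). Psme4 and Psmf1 had 0.04 and -0.07.

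The libraries with few Lars2 and Rn45s counts differed from the others across the subunit genes. In young replicate 3 and the 127-week sample, 19 of the 45 genes were lower than in all other 4 samples, against 14.1% of all genes. Psmc1, Psme4 and Psmg1 were higher in both than in the other 4, against 16.6% of all genes. In either direction this was 22 of the 45, against 30.7% of all genes. The library difference is the mean over the ages of the difference in log2(CPM + 1) between libraries with few and with many such counts. The age difference on the same scale is the mean of the differences within the rich and the poor libraries. In 34 of the 45 genes (75.6%) the library difference was the larger in size, against 53.6% of all genes. The median size of the library difference was 0.20 (0.25 over all genes), and that of the age difference 0.09 (0.21 over all genes). The beta ring held 6 of the 19 genes, Psmb1, Psmb2, Psmb3, Psmb4, Psmb6 and Psmb7, with a ring median of -0.41. The median difference of the 8 beta ring genes from the young mean was 0.15, 0.13 and -0.27 in young and -0.31, 0.10 and 0.11 in the 127-, 131- and 136-week samples. The other roles had medians between -0.14 for the alpha ring and 0.03 for the ATPases.

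The genes with the largest library differences were chosen after their values were seen. Psmd11, a lid subunit, had 103.3, 97.9 and 54.9 CPM in young and 62.2, 95.1 and 109.8 CPM in the aged samples. The library difference of Psmd11 was -0.86 among young and -0.71 among aged samples, a level 0.581 times that of the other libraries. Psmb7, with the values above, followed at -0.61, and Psmg4 at -0.58. Psmb2 had 183.1, 195.5 and 122.0 CPM in young and 131.2, 176.4 and 192.5 CPM in aged ECs, and Psmb3 141.6, 129.2 and 94.0 CPM in young and 96.5, 140.9 and 135.3 CPM in aged ECs. In each of these genes the 2 lowest of the 6 samples were young replicate 3 and the 127-week sample. Psme4 went the opposite way, with 19.7, 20.8 and 27.6 CPM in young and 28.2, 19.6 and 22.3 CPM in aged ECs, a library difference of 0.43. Across the 45 genes the library difference had a Spearman correlation of 0.41 with transcript length and of -0.24 with GC content, against 0.13 and 0.00 over 13022 genes with a transcript in the annotation. These are correlations across genes of the same 6 libraries, and genes are not independent replicates.

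**Figure D3:**
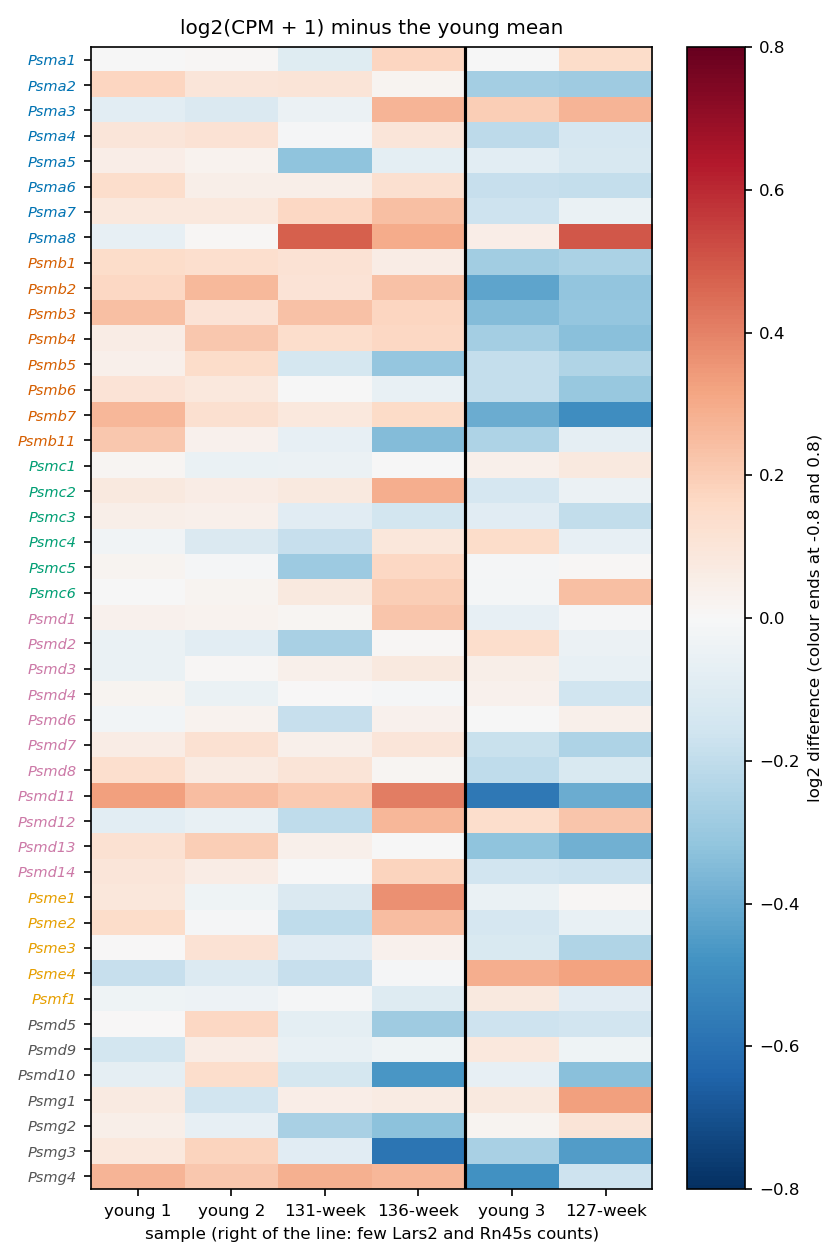
Colour gives log2(CPM + 1) minus the mean of the 3 young samples for each of the 45 genes (rows, coloured by role) in each sample (columns), with young replicate 3 and the 127-week sample right of the black line. Most beta ring genes and Psmd11 are blue right of the line and red left of it, whether the sample is young or aged.

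Within libraries of like Lars2 and Rn45s counts, the median age difference of the 45 genes was -0.02 in the libraries with many and 0.02 in those with few such counts. It was above 0 in both for 14 genes, below 0 in both for 15 genes and of opposite sign for 16 genes. Opposite signs made up 35.6% of these genes and 33.8% of all genes. With a term for the libraries in the edgeR fit, 0 of the 45 genes were called, against 0.0137% of all genes. Of the 45, 1 gene, Psma8, had an unadjusted p below 0.05 in that fit, against 16.7% of all genes.

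**Figure D4:**
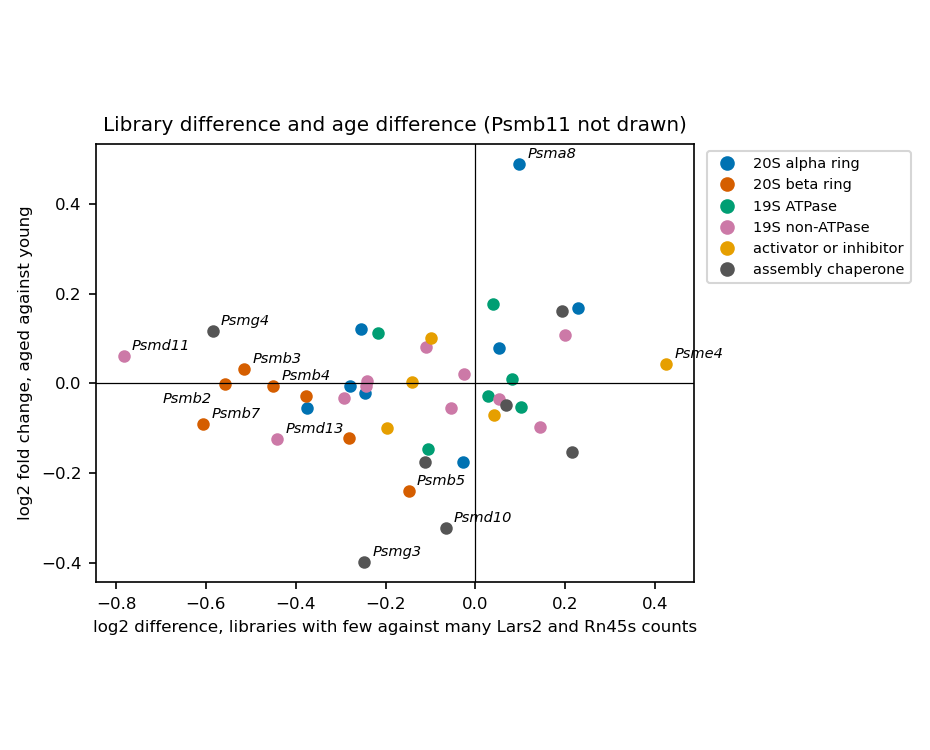
Each point is a gene, without Psmb11, with the library difference on log2(CPM + 1) on the horizontal axis and the edgeR log2 fold change between aged and young ECs on the vertical axis. Points spread from -0.78 for Psmd11 to 0.43 for Psme4 along the horizontal axis, and from -0.40 for Psmg3 to 0.49 for Psma8 along the vertical one.

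The catalytic subunits were next set beside the immunoproteasome subunits that can replace them. Levels were compared per length, as ratios of FPKM, since these are different genes. The ratio of Psmb8 to Psmb5 was 1.47, 1.43 and 1.57 in young and 2.11, 1.38 and 2.80 in the 127-, 131- and 136-week samples. It was thus above 1 in every sample, and in 2 of the 3 aged samples above all young ones. Its means were 1.49 ± 0.0708 and 2.099 ± 0.710 (SD, n = 3 each), a 1.35-fold difference of the geometric means (2-sided exact permutation test, p = 0.4, adjusted over the 3 ratios p = 0.8). Within libraries with many and few Lars2 and Rn45s counts the fold was 1.357 and 1.345. An exact test of 3 samples against 3 cannot give a p below 0.1.

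The ratio of Psmb9 to Psmb6 was 0.841, 0.839 and 0.839 in young and 1.16, 0.628 and 1.09 in aged ECs. The young samples were nearly equal, and the aged samples lay on both sides of them (2-sided exact permutation test, p = 0.7, adjusted p = 0.8). For Psmb10 to Psmb7 the ratio was 1.61, 1.60 and 2.17 in young and 2.47, 1.66 and 1.49 in aged ECs (2-sided exact permutation test, p = 0.8, adjusted p = 0.8). Here the 2 highest values were those of the libraries with few Lars2 and Rn45s counts, in which Psmb7 was lowest.

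Psmb8 itself, which replaces Psmb5, had 217.0, 222.4 and 197.5 CPM in young and 262.3, 181.0 and 325.2 CPM in the aged samples, a log2 fold change of 0.27 (SE 0.22, edgeR adjusted p = 0.679). Psmb9 had 107.3, 105.2 and 89.5 CPM in young and 116.1, 74.6 and 124.5 CPM in aged ECs. Psmb10 had 135.5, 122.4 and 115.3 CPM in young and 122.1, 123.0 and 115.8 CPM in aged ECs. Their log2 fold changes were 0.06 and -0.05 (edgeR adjusted p = 0.947 and 0.930). The 131-week sample was the lowest of the 6 for Psmb8 and Psmb9, and the 136-week sample the highest. Leukocyte markers ran in the same order among the aged samples, with 103.5 CPM at 131 weeks, 122.8 at 127 weeks and 374.5 at 136 weeks, and their part in the ratios was not tested.

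**Figure D5:**
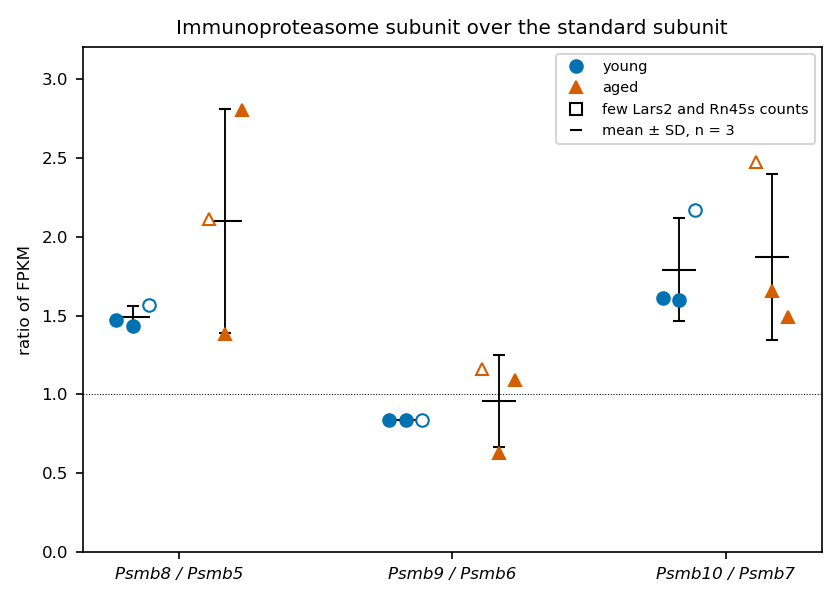
Ratio of FPKM of each immunoproteasome subunit gene to the standard subunit gene it can replace, with circles for young and triangles for aged samples (open: few Lars2 and Rn45s counts) and lines for the mean ± SD (n = 3). The aged samples are more widely spread than the young ones for each ratio, from 1.38 to 2.80 for Psmb8 to Psmb5.

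Genes that work with the proteasome gave the same count. Of 9 partner genes measured, which include the maturation factor Pomp, the ubiquitin receptor Adrm1 and the deubiquitinases Uchl5 and Usp14, 0 passed edgeR's test and 0 had an unadjusted p below 0.05, which 12.6% of all genes had. Usp14, with the smallest p, had 65.4, 70.1 and 75.1 CPM in young and 84.0, 67.2 and 84.4 CPM in aged ECs (log2 fold change 0.16, edgeR adjusted p = 0.719). Of 8 genes that regulate proteasome gene transcription, such as Nfe2l1 and the protease gene Ddi2 that activates its product, 0 passed and 1 had an unadjusted p below 0.05, a share of 1 in 8 that is close to the 12.6% of all genes. That gene was Mafk, which encodes a small Maf partner of the Nrf factors. Mafk had 102.5, 106.8 and 172.2 CPM in young and 206.1, 170.3 and 335.6 CPM in aged ECs, and only young replicate 3 reached the aged range. Its difference was 1.19 within the libraries rich and 0.26 within those poor in Lars2 and Rn45s counts. The highest value was that of the 136-week sample, which also had the most leukocyte marker counts, and their part in it was not tested. Its log2 fold change was 0.90 (SE 0.31, edgeR adjusted p = 0.332). Nfe2l1 had a log2 fold change of -0.05 (SE 0.16, edgeR adjusted p = 0.945).

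Of 8 ubiquitin shuttle genes measured, including the segregase gene Vcp, 0 passed edgeR's test and 0 had an unadjusted p below 0.05 (12.6% of all genes). Nploc4, a cofactor of Vcp, had 100.8, 114.9 and 107.2 CPM in young and 93.6, 95.8 and 95.8 CPM in aged ECs. All aged values were below all young ones (log2 fold change -0.18, edgeR adjusted p = 0.607), and 8.33% of all genes showed that order. Of 6 genes of ubiquitin and its activating enzymes, 0 passed and 0 had an unadjusted p below 0.05 (12.6% of all genes).

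Some of these counts are uncertain because of copies elsewhere in the genome. Of all 75-base stretches of each transcript, the length of a read, a share was found unchanged at another place in mm9 for 13 of the 45 genes. It was 51.7% for Psme2, 45.9% for Psmb5, 42.8% for Psma5, 39.5% for Psmb3, 29.9% for Psma4 and 26.01% for Psma3, and 0 for 32 genes. How reads with several places were counted is not given in the sources used here. Psmb6 and Psma8 had no such stretch, and 8.47% of those of Psmb7 had another place. Psmb8 had none, against the 45.9% of Psmb5, so the level of their ratio is uncertain. The effect of such copies on the ratio was not tested.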

How the data were processed

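RNA from CD31+CD45- liver ECs in 3 young and 3 aged samples was read as single-end reads of 75 bases. How many mice made up a sample is not stated in the methods. The authors called bases with CASAVA 1.8.2, mapped reads to mm9 with TopHat2 2.1.0 and deposited a table of raw read counts (24421 symbols). A second deposited table gives FPKM values that the authors made with Cuffnorm 2.2.1 (24346 symbols, scaled between samples). Versions are those of the submitters' processing notes. The counting program, its annotation and its use of strand are not given in the sources used here, so counts of genes that overlap others on either strand are uncertain. Total counts were 23001556 to 31651817. Replicates of an age differed beyond sampling noise (chi-square per degree of freedom 21.3 to 197.5).

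The 14612 genes that reached 0.5 CPM in 1 or more samples were scaled by TMM (factors 0.963 to 1.11) and compared with edgeR 4.0.16 (quasi-likelihood test, R 4.3.3), with Benjamini-Hochberg adjustment over all of them. SE is the log2 fold change over the root of the F statistic, and CPM values are TMM-scaled. Alternatives used DESeq2 1.42.0, limma 3.58.1 on voom values and on log2 of FPKM plus 0.1 or 1, other scalings and filters, a library term and each sample left out. Ratios of FPKM were compared by 2-sided exact permutation tests. Steps were tested on simulated data. Positions were taken from GENCODE for mm9.

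The 45 genes, the lists of related genes and markers, and the tests were chosen with earlier results of these data known, so no p was adjusted over the 45 genes alone. Values in every sample were printed for Psmb5, Psmb6, Psmb7, Psme1 and Psme2, for the 2 genes of each role and the 1 gene of each related list with the smallest unadjusted p, and for Psmb8, Psmb9 and Psmb10, except for items not reported here. Other genes were named after their values were seen. Paaf1 was not matched to the table and Ddi1 was too low to be tested. The single-cell, staining and transplantation data were not analysed here.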

Additional observations from a re-analysis of the deposited data

How the results depend on the processing

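In 17 alternatives 0 of the 45 genes were called, and the smallest adjusted p was 0.275 (Psma8, edgeR with a library term). Psma8 was the 1 gene higher at an unadjusted p below 0.05 with total counts, DESeq2, limma-voom, both limma fits on FPKM and the library term, and Psmb5 and Psmg3 the 2 lower with limma-voom. Of all genes, 12.7%, 14.9%, 15.4%, 11.1%, 10.7% and 16.7% passed that threshold in these fits, in the same order and in either direction. Leaving out 1 sample gave 0 to 1 higher (Psma8 without the 136-week sample) and 0 to 1 lower (Psmb5 without young replicate 3, Psmg3 without the 131-week sample), against 7.64% to 16.7% of all genes in either direction. Genes whose ages did not overlap became 4 higher and 1 lower with total counts (11.8% and 5.51% of all genes), and with FPKM Psma5 was lower too. They were 2 to 6 higher and 3 to 10 lower when 1 sample was left out, against 12.3% to 18.5% and 10.9% to 16% of all genes. The 6 (13.3%) came without the 131-week sample (18.5% of all genes), and the 10 (22.2%) without young replicate 3 (15.9%). There were 6 higher (13.3%) and 12 lower (26.7%), against 23.1% and 22.4% of all genes, in the 4 libraries with many Lars2 and Rn45s counts alone, an alternative chosen after seeing the data, which has fewer samples to overlap. The number of all genes with a log2 fold change beyond 1 and an adjusted p under 0.05 was 0 in the edgeR fit, 4 without a filter, 474 with DESeq2, 15 with limma-voom, 2 with limma on log2(FPKM + 0.1), 2 with the library term and 0 to 1 when 1 sample was left out; the cause was not tested. Of the 45 genes, 24 changed sign under at least 1 alternative and 21 under none; Psma8, Psmc6, Psmc3, Psmd10, Psmg3, Psmb5 and Psmb6 kept their sign.

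When 1 sample was left out, the log2 ratio of aged to young ran from 0.20 to 0.71 for Psmb8 to Psmb5, from -0.0205 to 0.42 for Psmb9 to Psmb6 (negative without the 127-week sample) and from -0.18 to 0.19 for Psmb10 to Psmb7 (negative without young replicate 1 or 2 or the 127-week sample, at -0.03, -0.03 and -0.18). Psmb11 was left out by edgeR's own filter and without young replicate 1. No paired analysis was made, because young and aged samples came from different mice and the labels pair none of them. The 95% interval of every one of the 45 genes included 0.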
